A study of Homo sapiens with 12 samples.

Results

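Growth factor receptors and the proteins that carry their signal into the cell were examined in HCT116 cells after inhibition of MEK1/2. The genes were the rows of the Ribo-seq count table with the symbols EGFR, ERBB2, ERBB3, MET, IGF1R, INSR, IRS1, IRS2, GAB1 and SHC1, which are 6 receptors and 4 adaptors. They make up 10 of the 15798 genes listed, and all 10 passed the filter on low counts and were among the 10663 genes tested. The question put to them was whether receptor signalling genes gain mRNA or ribosomes, relative to other genes, when MEK is blocked.

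HCT116 is an established human colorectal carcinoma line. Cells received either the MEK1/2 inhibitor trametinib (100 nM) or its solvent DMSO for 24 h, and were briefly exposed to cycloheximide before lysis in both groups. From the lysates, randomly fragmented cytoplasmic RNA (input, a measure of mRNA abundance) and fragments protected by ribosomes against RNase I (ribosome footprints) were sequenced. The 12 libraries fall into 4 groups of 3 biological replicates, namely DMSO input, trametinib input, DMSO footprints and trametinib footprints.

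Receptor tyrosine kinases are membrane proteins that bind a growth factor outside the cell and phosphorylate tyrosines inside it. Adaptors dock on these tyrosines and connect the receptor to RAS, RAF, MEK and ERK on one side and to PI3K and AKT on the other. Active ERK restrains receptors and adaptors through several feedback loops, and relief of this feedback is known from colorectal cancer cells treated with inhibitors of the pathway.

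The input libraries held 2276693 to 2845568 counted reads each, and the footprint libraries 10127477 to 19181588. The treatment labels were checked with 11 genes induced by ERK, and all 11 were lower in trametinib in both assays, with median log2 changes of -4.08 in input and -4.50 in footprints. One of them is EPHA2, itself a receptor tyrosine kinase, with 705 to 1542 raw counts in DMSO input and 11 to 15 in trametinib input. Epithelial keratins, EPCAM and CDH1 were present in every library, whereas the intestinal markers VIL1 and CDX1 had at most 2 counts in any library. The summed normalized count of the 10 epithelial markers was 30860 to 46670 in DMSO input and 54890 to 67590 in trametinib input. In footprints it was 51460 to 71190 and 82120 to 95770, and its part in the receptor changes was not tested. Not every marker rose: 6 of the 8 tested had input estimates above 0, while KRT18 was at -0.21 and CLDN7 at -0.64. The keratins KRT8, KRT18 and KRT19 weighed most in these sums. Each had at least 2482 raw counts in every input library, against at most 1660 for any other epithelial marker. Of the 9 listed markers of blood, stromal and endothelial cells, 7 had at most 4 counts in any library, and the other ones were COL1A1 and VWF. The summed level of all 9 was 66.9 to 89.1 in DMSO input and 101.7 to 151 in trametinib input. Raw input counts of VWF were 1 to 9 in DMSO and 21 to 23 in trametinib, and those of COL1A1 were 19 to 36 and 14 to 35. In such bulk libraries, more RNA per cell cannot be told apart from more cells of a kind. The input and footprint libraries of DMSO replicate 1 stood apart together, with deviations from their group means that correlated at r = 0.83 over 6802 genes, against at most 0.357 for the other same-numbered pairs. Results were therefore also computed without them. Without DMSO replicate 1, 4 of the 10 genes were called higher in input, 8 in footprints and 0 in ribosome density, against 4, 7 and 1 with it. Of all 10663 tested genes, 1767 were called higher in input, 3176 in footprints and 31 in ribosome density without it, against 1641, 2545 and 35.

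The stretches of DNA in front of the transcription start are shown for 4 receptors, because they include a receptor whose input mRNA rose under trametinib, IGF1R, and 3 whose input change did not pass the test, EGFR, MET and INSR. Each sequence holds the 250 bases before the start of the gene, read 5′ to 3′ on the strand of the gene, from RefSeq on GRCh38.p14. The positions are chr7:55018767-55019016 on the plus strand for EGFR, chr7:116671946-116672195 on the plus strand for MET, chr15:98648289-98648538 on the plus strand for IGF1R and chr19:7294415-7294664 on the minus strand for INSR. Capitals mark the letters GGGCGG or their reverse complement, the GC box known to bind SP1.
EGFR: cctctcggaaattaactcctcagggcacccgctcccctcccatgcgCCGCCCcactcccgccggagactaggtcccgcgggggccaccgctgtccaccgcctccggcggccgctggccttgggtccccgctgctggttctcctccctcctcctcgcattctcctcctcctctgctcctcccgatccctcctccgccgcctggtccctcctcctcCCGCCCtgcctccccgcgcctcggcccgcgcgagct
MET: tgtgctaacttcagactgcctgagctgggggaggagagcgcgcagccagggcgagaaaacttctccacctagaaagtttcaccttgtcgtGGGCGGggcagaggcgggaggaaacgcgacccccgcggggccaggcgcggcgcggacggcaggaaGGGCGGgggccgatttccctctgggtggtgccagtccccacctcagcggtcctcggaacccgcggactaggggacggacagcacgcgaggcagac
IGF1R: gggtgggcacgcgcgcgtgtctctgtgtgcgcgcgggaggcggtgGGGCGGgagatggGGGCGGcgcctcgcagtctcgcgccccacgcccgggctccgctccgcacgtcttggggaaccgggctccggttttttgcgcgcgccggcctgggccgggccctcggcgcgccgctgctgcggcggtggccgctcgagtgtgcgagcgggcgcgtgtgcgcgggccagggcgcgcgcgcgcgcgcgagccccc
INSR: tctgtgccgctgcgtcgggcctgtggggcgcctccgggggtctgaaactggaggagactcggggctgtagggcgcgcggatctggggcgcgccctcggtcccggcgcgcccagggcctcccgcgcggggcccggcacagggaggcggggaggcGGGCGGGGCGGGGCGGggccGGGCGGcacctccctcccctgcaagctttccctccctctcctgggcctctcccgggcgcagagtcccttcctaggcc
In these letters the GC box occurred 2 times before EGFR, 2 times before MET, 2 times before IGF1R and 4 times before INSR, where copies share bases. GC content was 73.6% for EGFR, 68.4% for MET, 81.2% for IGF1R and 78.4% for INSR. The letters CCGGAAG of an ETS motif, TGANTCA of an AP-1 motif and TGTTTAC of a FOXO motif, each searched on both strands, were not found in these 4 stretches. Windows not shown did hold some of them: the ERBB2 window, which lies 11970 bases from the start of its main transcript, had 2 ETS and 1 AP-1 matches, and a second EGFR window, 90822 bases from the main start, had 2 AP-1 matches. SHC1 had 1 AP-1 match in the window at its main start and 1 ETS match in a second one, while the IRS1 and IRS2 windows had none of the 3 motifs. Among 35116 promoter windows of the same length, 42.64% held the GC box, 8.517% the ETS letters, 6.573% the AP-1 letters and 2.979% the FOXO letters. Matches describe the sequence only. RefSeq windows were at hand for 8 of the 10 genes, and not for ERBB3 and GAB1.

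Levels are normalized counts, for which the counts of a library were divided by its size factor, set over all 12 libraries. A change is the log2 ratio of trametinib to DMSO, followed by its standard error (SE). Adjusted p-values are from edgeR's quasi-likelihood test for input and footprints and from DESeq2's likelihood ratio test for ribosome density, the footprints relative to input, with Benjamini-Hochberg adjustment over all genes tested. A gene was called at an adjusted p under 0.05. Because libraries are scaled to each other, a change shared by all mRNAs cannot be seen. From polysome profiling, the paper reports that global protein synthesis fell in this cell line under the same dose and duration of trametinib. Footprint changes given here are therefore relative to the other genes. Whether any gene gained ribosomes in absolute terms was not tested.

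In input, 4 of the 10 genes were higher and 0 were lower in trametinib, while 15.4% of all tested genes were higher and 16.8% lower. In footprints, 7 were higher and 0 lower, against 23.9% and 25.6% of all tested genes. In ribosome density, 1 was higher and 0 lower, against 0.328% and 1.4% of all tested genes. The median change of the 10 genes was 0.44 in input, 0.51 in footprints and 0.12 in ribosome density, where the medians of all tested genes were 0.00, -0.01 and 0.00. The ribosome density median was between 0.0277, without DMSO footprint replicate 3, and 0.144 when single libraries were left out. It was 0.0293 without DMSO input replicate 1, 0.19 with TMM factors and 0.29 with library totals. The receptors carried most of the calls, with 3 of 6 in input and 6 of 6 in footprints, while of the 4 adaptors GAB1 was the one called in either assay. In footprints, every trametinib library lay above every DMSO library for 7 of the 10 genes, as it did for 30.4% of all tested genes. None of the 6 genes without a call in input had an estimate below -0.03.

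**Figure D1:**
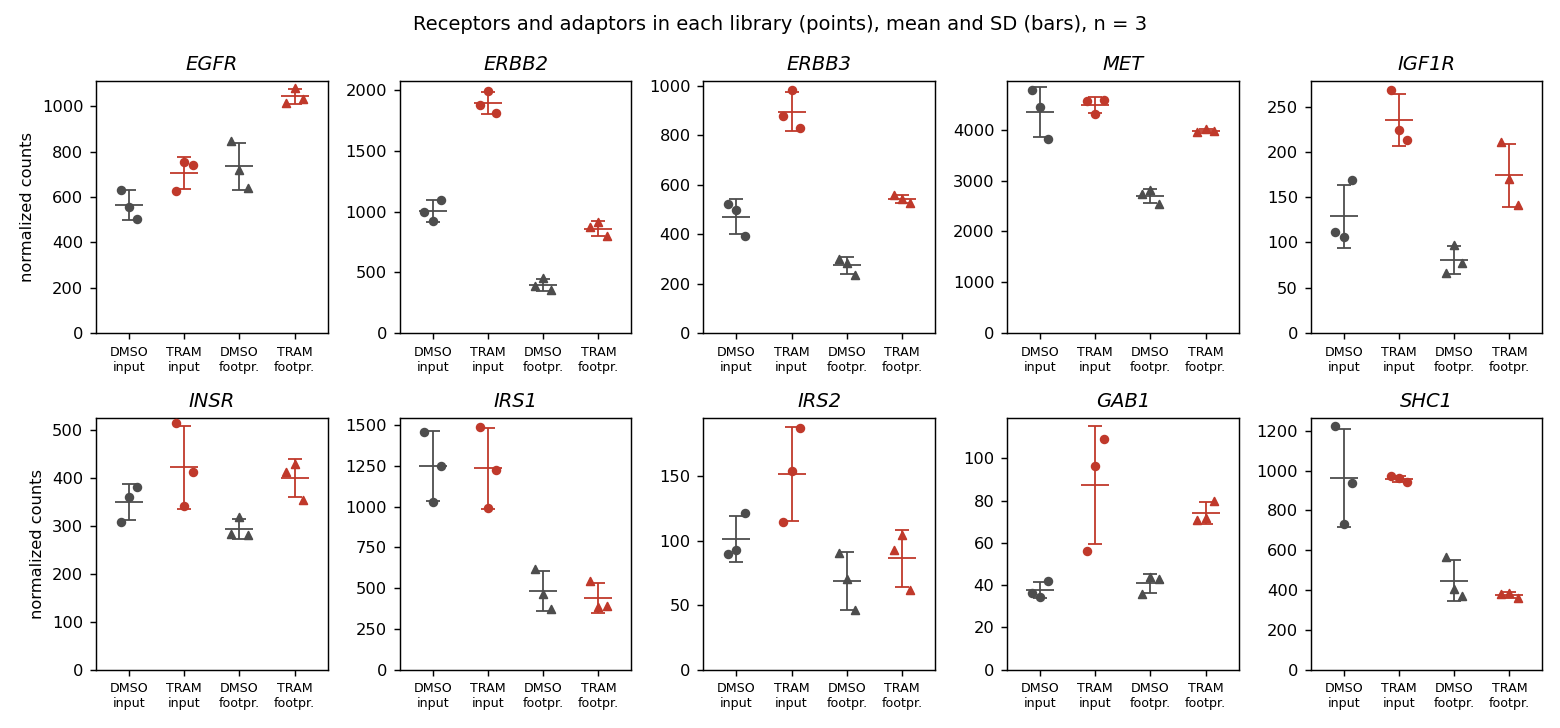
Normalized counts (vertical axis, linear, from 0, a scale of its own for each gene) of the 10 genes in DMSO (grey) and trametinib (red) input (circles) and footprint (triangles) libraries, with mean and SD (bars, n = 3). Trametinib footprints lie above DMSO footprints without overlap for all 6 receptors and GAB1, and overlap with them for IRS1, IRS2 and SHC1.

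ERBB2 and ERBB3 rose about equally in both assays. ERBB2 (HER2, chromosome 17, 39687914 to 39730426, plus strand, GRCh38) is a receptor without a ligand of its own that pairs with the other members of the EGFR family. Its input was 996, 921 and 1099 normalized counts in DMSO and 1882, 1996 and 1817 in trametinib. Its footprints were 387, 451 and 357 in DMSO and 873, 913 and 797 in trametinib. The lowest trametinib library was above the highest DMSO library in both assays. The change was 0.90 (SE 0.14, edgeR adjusted p = 0.000404) in input and 1.10 (SE 0.12, edgeR adjusted p = 0.000151) in footprints, or 1.87-fold and 2.14-fold.

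ERBB3 (HER3, chromosome 12, 56076799 to 56103505, plus strand) binds neuregulins, has little kinase activity of its own and recruits PI3K strongly once ERBB2 phosphorylates it. Its input was 521.5, 498 and 391.5 in DMSO and 875, 981 and 828 in trametinib. Its footprints were 300.3, 284 and 236 in DMSO and 558, 543 and 524 in trametinib. Again the groups did not overlap in either assay. The change was 0.91 (SE 0.16, edgeR adjusted p = 0.00102) in input and 0.97 (SE 0.12, edgeR adjusted p = 0.000263) in footprints. Both ERBB genes kept their calls in every fit that left out 1 library.

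IGF1R had the largest estimated footprint change of the 10 genes, close to that of ERBB2. IGF1R (chromosome 15, 98648539 to 98964530, plus strand) is the receptor for insulin-like growth factors and signals chiefly through IRS1 and IRS2. Its input was 112, 106 and 169 normalized counts in DMSO and 268, 224 and 214 in trametinib. Its footprints were 66.5, 97.2 and 77.8 in DMSO and 211, 170 and 141 in trametinib. The groups did not overlap, although DMSO input replicate 3 was well above the other DMSO inputs, and raw input counts of IGF1R were only 49 to 110. The change was 0.86 (SE 0.22, edgeR adjusted p = 0.00997) in input and 1.11 (SE 0.20, edgeR adjusted p = 0.00171) in footprints. Without trametinib input replicate 1 the input change was 0.76 and its edgeR adjusted p was 0.0528, so that the call was lost.

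EGFR and INSR were called in footprints and not in input. EGFR (chromosome 7, 55019017 to 55211628, plus strand) is the receptor for EGF and a central feedback target in colorectal cancer cells. Its input was 633, 555 and 502 in DMSO and 626, 754 and 742 in trametinib. Its footprints were 846, 721 and 642 in DMSO and 1017, 1083 and 1033 in trametinib. Input overlapped through trametinib replicate 1, while footprints did not overlap. The input change of EGFR was 0.31 (SE 0.16, edgeR adjusted p = 0.153), with a 95% interval from -0.03 to 0.66. Its footprint change was 0.48 (SE 0.13, edgeR adjusted p = 0.0119), and without trametinib footprint replicate 2 it was 0.46 with an edgeR adjusted p of 0.0534.

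INSR (chromosome 19, 7112255 to 7294414, minus strand) is the insulin receptor and can form hybrids with IGF1R. Its input was 309, 360.3 and 382 in DMSO and 514, 342 and 414 in trametinib. Its footprints were 284, 318 and 281 in DMSO and 414, 430.4 and 355 in trametinib. Only the footprints were free of overlap. The footprint change was 0.42 (SE 0.12, edgeR adjusted p = 0.0148), against 0.26 (SE 0.18, edgeR adjusted p = 0.303, 95% interval -0.14 to 0.65) in input. The footprint call of INSR was lost without trametinib footprint replicate 1 (0.40, edgeR adjusted p = 0.0684) or replicate 2 (0.37, edgeR adjusted p = 0.0722). For neither EGFR nor INSR was a difference between the assays detected, since their ribosome density changes were 0.18 (SE 0.20, DESeq2 adjusted p = 0.992) and 0.17 (SE 0.23, DESeq2 adjusted p = 0.998).

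MET was the one gene of the 10 with a called change in ribosome density. MET (chromosome 7, 116672196 to 116798377, plus strand) is the receptor for hepatocyte growth factor. Its input was 4784, 4449 and 3809 in DMSO and 4570.0, 4309 and 4589.7 in trametinib. Its footprints were 2736, 2818 and 2537 in DMSO and 3947, 4016 and 3972 in trametinib. Input overlapped fully, while every trametinib footprint library was above every DMSO one. The input change was 0.03 (SE 0.14, edgeR adjusted p = 0.885, 95% interval -0.27 to 0.33) and the footprint change 0.54 (SE 0.11, edgeR adjusted p = 0.0029).

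Footprints of MET per input, taken from same-numbered libraries, were 0.572, 0.633 and 0.666 in DMSO and 0.864, 0.932 and 0.865 in trametinib. The treatments did not overlap, and MET moved towards the median of all tested genes, which was 1.03 in DMSO and 1.01 in trametinib. The ribosome density change was 0.52 (SE 0.14, DESeq2 adjusted p = 0.025), or 1.43-fold. This call rested on the test and on all libraries being kept. Other scalings in DESeq2 kept it, with TMM factors (0.59, adjusted p = 0.00419) and with library totals (0.69, adjusted p = 5.54e-05). These scalings also raised the number of all tested genes called higher in ribosome density, from 35 to 52 and to 142. Library totals moved the median of all genes upward as well. The DESeq2 adjusted p was 0.0213 with no filter on low counts and 0.0308 with a filter on libraries of either assay. In edgeR's quasi-likelihood test the change was 0.59 with an adjusted p of 0.157, and in limma 0.58 with an adjusted p of 0.155. With a block for the replicate number the DESeq2 adjusted p was 0.0755, and with a block that pairs input and footprints of the same number it was 0.0748. Of 12 fits that each left out 1 library, 10 did not call it, with changes from 0.44 to 0.59 and DESeq2 adjusted p-values up to 0.167. The fits that kept the call were those without DMSO input replicate 3 and without DMSO footprint replicate 1. Leaving out DMSO replicate 1 in both assays gave 0.45 and a DESeq2 adjusted p of 0.106.

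**Figure D2:**
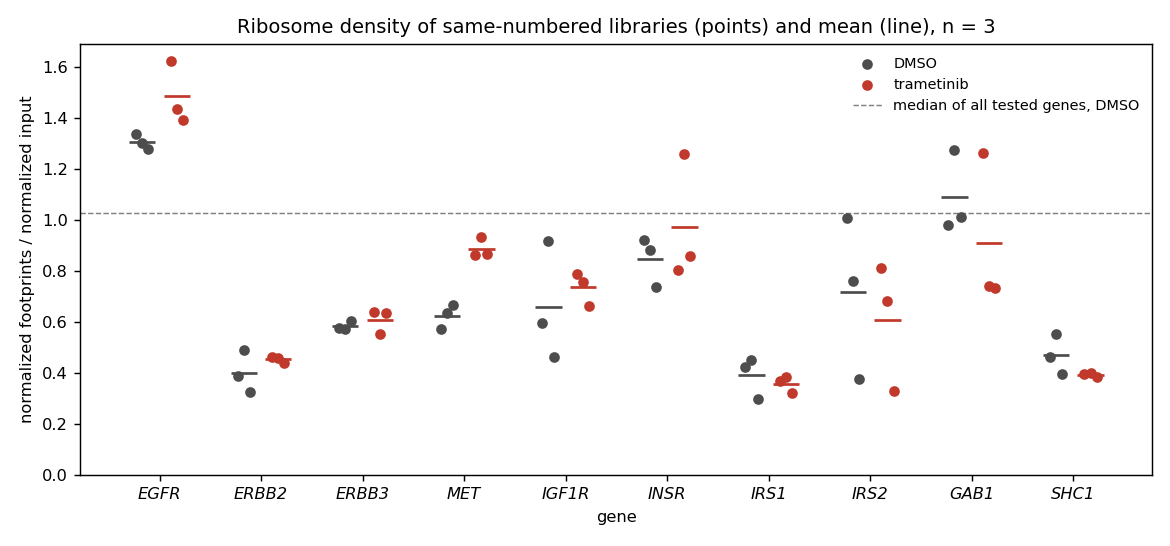
Normalized footprints divided by normalized input (vertical axis, linear) for each pair of same-numbered libraries in DMSO (grey) and trametinib (red), with the mean as a line (n = 3). The DMSO points of MET lie between 0.572 and 0.666 and its trametinib points between 0.864 and 0.932, while the points of the adaptors overlap between treatments.

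Ribosome density of EGFR did not overlap either, with 1.34, 1.30 and 1.28 in DMSO and 1.62, 1.44 and 1.39 in trametinib, but the change of EGFR was not called. For ERBB2, ERBB3 and IGF1R the ribosome density changes were 0.20 (95% interval -0.14 to 0.54), 0.06 (-0.34 to 0.46) and 0.25 (-0.39 to 0.89), with DESeq2 adjusted p-values of 0.951, 0.998 and 0.998. For the adaptors the estimates lay between -0.34 and -0.12, and none was called. The 10 genes differed in ribosome density already in DMSO. IRS1 at 0.390 and ERBB2 at 0.401 lay above 9.5% and 10.0% of tested genes, SHC1 at 0.471 above 13.8%, ERBB3 at 0.583 above 20.8% and MET at 0.624 above 23.1%. EGFR at 1.31 lay above 63.5%, the highest place among the 10. These ratios compare normalized counts of both assays over the same reading frame, so length cancels out.

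Among the adaptors, GAB1 rose in both assays. GAB1 (chromosome 4, 143336876 to 143474565, plus strand) is a docking protein that binds MET and GRB2 and recruits PI3K and SHP2. Its input was 36.5, 34.5 and 42.2 normalized counts in DMSO and 56.1, 96.5 and 109 in trametinib. Its footprints were 35.8, 44.1 and 42.7 in DMSO and 70.7, 71.6 and 80.0 in trametinib. The groups did not overlap, but GAB1 was the weakest of the 10 in DMSO input, with 16 to 42 raw input counts in all 6 libraries. The change was 1.19 (SE 0.31, edgeR adjusted p = 0.0102) in input and 0.84 (SE 0.15, edgeR adjusted p = 0.00188) in footprints. Without trametinib input replicate 3 the input change of GAB1 was 0.99, with an edgeR adjusted p of 0.0561.

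IRS1 and IRS2 couple the insulin and IGF receptors to PI3K. IRS1 (chromosome 2, 226731312 to 226799820, minus strand) had 1462, 1031 and 1252 in DMSO input and 1489, 994 and 1226 in trametinib input. Its footprints were 618, 463 and 374 in DMSO and 546, 383 and 393 in trametinib. The groups overlapped throughout, and replicate 1 of either treatment was the highest in both assays. The change was -0.03 (SE 0.18, edgeR adjusted p = 0.922, 95% interval -0.42 to 0.36) in input and -0.16 (SE 0.21, edgeR adjusted p = 0.555, 95% interval -0.63 to 0.31) in footprints. Without DMSO replicate 1 these became 0.10 and 0.08.

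IRS2 (chromosome 13, 109752695 to 109786583, minus strand) had 90.1, 92.8 and 122 in DMSO input and 115, 154 and 187 in trametinib input. Its footprints were 91.0, 70.6 and 46.0 in DMSO and 92.9, 105 and 61.8 in trametinib. Both assays overlapped. The change was 0.57 (SE 0.24, edgeR adjusted p = 0.0922) in input and 0.31 (SE 0.28, edgeR adjusted p = 0.384) in footprints. IRS2 passed the threshold in input without DMSO input replicate 3 (0.72, edgeR adjusted p = 0.0492) and in footprints without DMSO footprint replicate 1 (0.61, edgeR adjusted p = 0.0366).

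SHC1 (chromosome 1, 154962298 to 154974395, minus strand) links receptors to GRB2 and SOS and so to RAS. Its input was 1221, 732 and 938 in DMSO and 973, 963 and 942 in trametinib. Its footprints were 566, 403 and 372 in DMSO and 383, 386 and 360.0 in trametinib. DMSO replicate 1 was the highest library in both assays, and the 3 trametinib libraries lay close together. The change was -0.02 (SE 0.18, edgeR adjusted p = 0.944, 95% interval -0.42 to 0.37) in input and -0.27 (SE 0.16, edgeR adjusted p = 0.195) in footprints. Without DMSO replicate 1 these became 0.19 and -0.05.

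**Figure D3:**
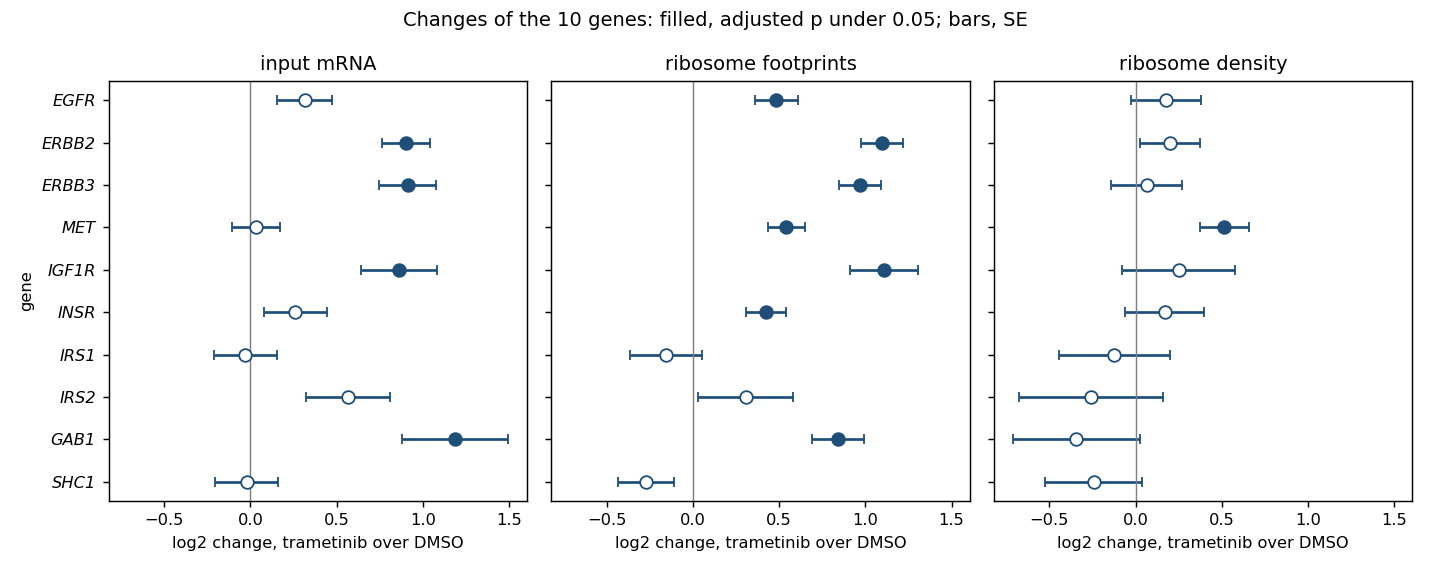
Log2 change of trametinib over DMSO (horizontal axis) with SE (bars) in input mRNA, ribosome footprints and ribosome density for the 10 genes, filled where the adjusted p was under 0.05. In footprints all 6 receptors and GAB1 are filled, from 0.42 for INSR to 1.11 for IGF1R, and in ribosome density MET alone is filled.

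Per length, MET was by far the most abundant of the 10 mRNAs. Divided by the kilobases of its coding sequence in GENCODE v44, the MET input level was 1043 ± 119 (SD, n = 3) normalized counts per kb in DMSO and 1077 ± 37.5 in trametinib. SHC1 followed with 549.9 ± 140.4 in DMSO, then IRS1 with 335 ± 57.7 and ERBB2 with 267 ± 23.8, where IRS1 and ERBB2 did not differ beyond their spread. EGFR with 155 ± 18.2, ERBB3 with 117 ± 17.2 and INSR with 84.5 ± 9.04 came next. IGF1R with 31.4 ± 8.49, IRS2 with 25.3 ± 4.39 and GAB1 with 18.1 ± 1.91 were lowest, and of these IGF1R and IRS2 did not differ beyond their spread.

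The order changed in part under trametinib. ERBB2 passed IRS1 in input, with 504 ± 24.0 against 332 ± 66.5 normalized counts per kb. ERBB3 at 222 ± 19.5 and EGFR at 195 ± 19.4 no longer differed beyond their spread. In footprints per kb, MET led with 647 ± 34.7 in DMSO and 954 ± 8.38 in trametinib. Second in DMSO footprints was SHC1 with 255 ± 59.6, which was within the spread of EGFR at 203 ± 28.4. In trametinib EGFR at 288 ± 9.47 stood second, and ERBB2 at 229 ± 15.7 and SHC1 at 215 ± 8.09 did not differ beyond their spread.

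The genes whose level followed that of IGF1R most closely over the 12 libraries were PITPNM1, STARD10 and RPE, with Pearson's r of 0.98, 0.972 and 0.965 among 6794 genes searched. The log2 levels of each gene were first centred within each assay, so differences between the assays do not enter r. These values describe libraries that share 2 treatments.

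Other receptor tyrosine kinases were compared as a list of 38 genes without the ephrin receptors. Of these, 36 were in the table and 18 were tested. In input, 7 were higher and 0 lower, against 15.4% and 16.8% of all tested genes. In footprints, 8 were higher and 1 lower, against 23.9% and 25.6% of all tested genes, and 0 were called in ribosome density. EPHA2, an ephrin receptor and so outside this list, changed by -6.01 in input and -6.19 in footprints (edgeR adjusted p = 1.07e-07 and 6.77e-06). The list's median change was 0.11 in input and 0.47 in footprints. FGFR3, a fibroblast growth factor receptor, rose by 1.29 in input and 1.52 in footprints (edgeR adjusted p = 0.00628 and 0.00329). RET, the receptor for GDNF family ligands, rose by 1.28 and 1.53 (edgeR adjusted p = 0.00251 and 0.0001). DDR1, a collagen receptor, rose by 0.82 and 0.89, and the pseudokinase PTK7 by 0.61 and 0.65. LMTK3 rose by 0.89 and 0.55, but lost its call in 3 of 6 input and 4 of 6 footprint fits that left out 1 library, with changes between 0.67 and 1.27 in input and between 0.40 and 0.69 in footprints. STYK1 was the receptor-like kinase that fell in footprints, by 0.69 (edgeR adjusted p = 0.0141), a call lost without DMSO footprint replicate 2 (-0.53) or trametinib footprint replicate 2 (-0.69).

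**Figure D4:**
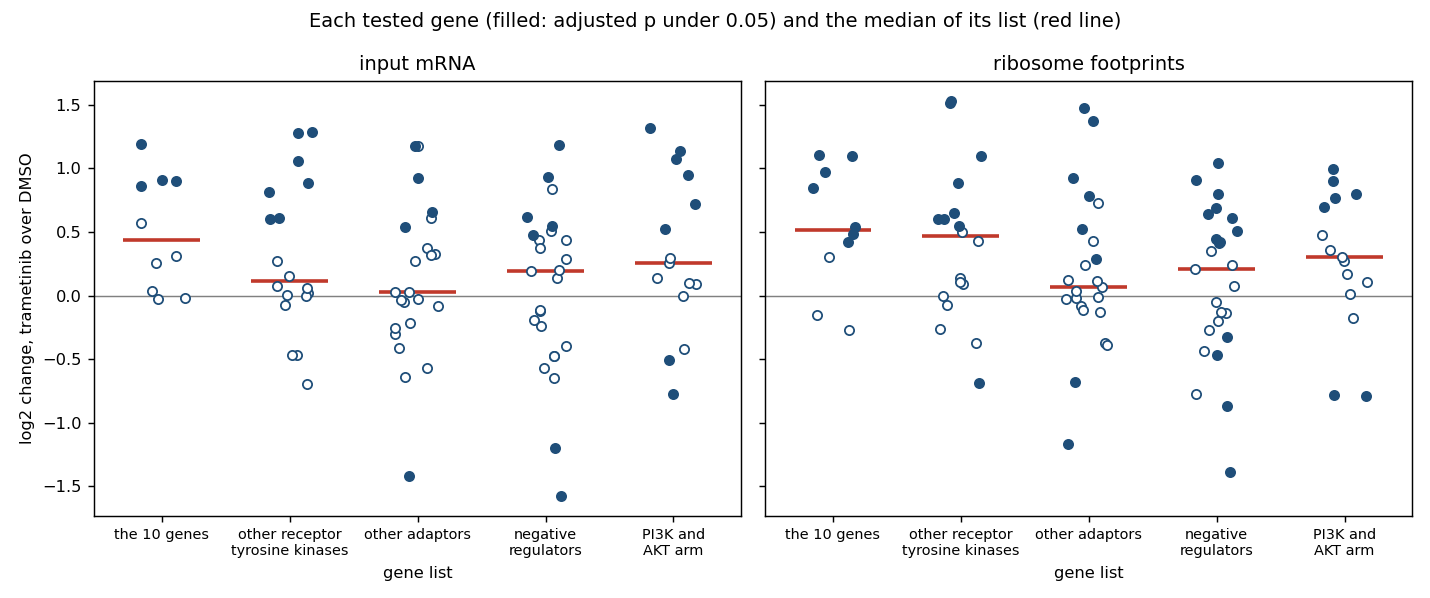
Log2 change of trametinib over DMSO (vertical axis) of each tested gene in input mRNA and ribosome footprints, for the 10 genes and 4 further lists, filled where the adjusted p was under 0.05, with the median of each list as a red line. The medians of the 10 genes are 0.44 in input and 0.51 in footprints, and those of the other receptor tyrosine kinases 0.11 and 0.47.

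Of 23 other adaptors tested, 4 were higher and 1 lower in input, against 15.4% and 16.8% of all tested genes. In footprints 6 were higher and 2 lower, against 23.9% and 25.6% of all tested genes. In ribosome density 1 was higher, against 0.328% of all tested genes. The medians of these adaptors were 0.03 in input, 0.07 in footprints and 0.01 in ribosome density. NCK2, an adaptor to the actin skeleton, rose by 1.17 in input and 0.93 in footprints, and DOK4, a docking protein for insulin receptor and RET, by 0.93 and 1.38. PLCG2, a phospholipase that receptors activate, rose by 0.54 and 0.52, with an input call lost in 3 of 6 fits that left out 1 library (0.47 to 0.63 over all 6). SOS2 was called in input at 0.65 (edgeR adjusted p = 0.0251), a call lost in 4 of 6 such fits (0.47 to 0.89 over all 6). The footprint change of SOS2 was 0.73 (edgeR adjusted p = 0.0721). It was called with the replicate number as a block (0.83, edgeR adjusted p = 0.0392), with library totals (0.91, edgeR adjusted p = 0.0281), in DESeq2's Wald test (adjusted p = 0.0258), in limma (adjusted p = 0.0384) and without DMSO footprint replicate 1 (1.25, edgeR adjusted p = 5.11e-06). It stayed uncalled with DESeq2 size factors, with the other filters and without any other single footprint library. Over all 6 fits that left out 1 library, the footprint change of SOS2 was 0.51 to 1.25. SH2B3, a negative regulator of cytokine and receptor signals, fell by 1.42 in input and by 1.17 in footprints (edgeR adjusted p = 0.00124 and 0.0015). The footprint level of SH2B3 was low, with means of 20.9 normalized counts in DMSO and 9.39 in trametinib.

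SOS1, the exchange factor that loads RAS with GTP next to GRB2, was the adaptor list's call in ribosome density. Its input was between 289 and 382 in DMSO and between 190.4 and 358 in trametinib, whereas its footprints were between 205 and 226 in DMSO and between 344 and 426 in trametinib. Input overlapped and footprints did not. The footprint change of SOS1 was 0.79 (SE 0.12, edgeR adjusted p = 0.000733), the input change -0.21 (SE 0.23, edgeR adjusted p = 0.509) and the ribosome density change 1.00 (SE 0.29, DESeq2 adjusted p = 0.0365). As for MET, this call was lost in edgeR (1.08, adjusted p = 0.106), in limma (1.11, adjusted p = 0.135) and in 9 of 12 fits that left out 1 library (0.77 to 1.16, DESeq2 adjusted p up to 0.175). With the block that pairs input and footprints of the same number it was 1.03 with a DESeq2 adjusted p of 0.00472. TMM factors, library totals, the replicate block and the filter on libraries of either assay also kept the call. With no filter on low counts the DESeq2 adjusted p was 0.0514. Leaving out DMSO replicate 1 in both assays gave 0.90 and a DESeq2 adjusted p of 0.141.

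Of 25 negative regulators of receptors, 5 were higher and 2 lower in input, against 15.4% and 16.8% of all tested genes. In footprints 10 were higher and 4 lower, against 23.9% and 25.6% of all tested genes. Among the regulators that fell was ERRFI1 (MIG6), which binds and blocks the kinase domain of EGFR and ERBB2. ERRFI1 fell by 1.58 in input and by 1.39 in footprints (edgeR adjusted p = 0.00747 and 0.0248). Its DMSO libraries were far apart, from 1542 to 6156 in input with replicate 1 highest. Without DMSO replicate 1 the changes of ERRFI1 were -0.75 and -0.56, and its footprint call was lost without any single trametinib footprint library and in DESeq2's Wald test (adjusted p = 0.0542). UBASH3B, a phosphatase that acts on receptors and their ligase CBL, was at 315.9 normalized counts in DMSO input and at 138.9 in trametinib input, a log2 change of -1.197, and fell by 0.87 on that scale in footprints (edgeR adjusted p = 0.00026 and 0.00215). Over fits that left out 1 library, the change of UBASH3B was -1.27 to -1.13 in input and -0.99 to -0.72 in footprints. The tyrosine phosphatases PTPN1 and PTPN2, which act on the insulin receptor and other kinases, fell in footprints by 0.47 and by 0.32, each losing the call in 3 of 6 fits that left out 1 library (-0.53 to -0.31 and -0.37 to -0.26 over all 6). With library totals as scaling these changes were -0.29 and -0.14 and not called.

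Among the negative regulators that rose were the receptor phosphatases PTPRK (0.62 in input, 0.91 in footprints), PTPRF (0.55 and 0.69) and PTPRJ (0.47 and 0.64). The input call of PTPRF was lost without trametinib input replicate 1 (0.45), and that of PTPRJ in 4 of 6 fits that left out 1 library (0.44 to 0.53 over all 6). SOCS3, a suppressor of cytokine signalling, was higher in input by 1.18 (edgeR adjusted p = 0.00238), while its footprint change was 0.24 (edgeR adjusted p = 0.221). CBLB, a ubiquitin ligase for receptors, rose by 0.94 in input and 0.61 in footprints, the latter a call lost in 5 of 6 fits (0.47 to 0.86 over all 6). ERBIN, a scaffold that binds ERBB2, rose by 0.80 in footprints (edgeR adjusted p = 0.0016), with an input change of 0.51 (edgeR adjusted p = 0.0908). The input change of ERBIN was called with a replicate block (0.56, edgeR adjusted p = 0.00694) and without DMSO input replicate 1 (0.75, edgeR adjusted p = 0.00424), and was 0.28 without DMSO input replicate 3.

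Of 15 genes of the PI3K and AKT arm, 6 were higher and 2 lower in input, against 15.4% and 16.8% of all tested genes. In footprints 5 were higher and 2 lower, against 23.9% and 25.6% of all tested genes. INPPL1 (SHIP2), a lipid phosphatase, rose by 0.72 in input and 0.77 in footprints (edgeR adjusted p = 0.00415 and 0.00131). The transcription factor FOXO4, which AKT inactivates, rose by 1.14 and 0.90. PIK3CD, a catalytic subunit of PI3K, rose by 0.95 and 0.99, with an input call lost in 4 of 6 fits that left out 1 library (0.66 to 1.28 over all 6). INPP4B, also a lipid phosphatase, fell by 0.78 and by 0.79, its input call lost without trametinib input replicate 2 (-0.77). PHLPP2, a phosphatase of AKT, fell by 0.51 and by 0.78, its input call lost in 5 of 6 fits (-0.56 to -0.41 over all 6). The other PHLPP gene of this list, PHLPP1, went the other way. It was at 0.525 in input (edgeR adjusted p = 0.0497) and at 0.30 in footprints (edgeR adjusted p = 0.135).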

How the data were processed

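Cytoplasmic input RNA and ribosome footprints of HCT116 cells were measured in 12 libraries, grouped by their labels. The authors removed adapters, discarded rRNA and tRNA reads with Bowtie, mapped the rest to the basic Gencode V38 transcripts and counted reads of footprint length within reading frames, per gene symbol. The submitters' processing notes name Bowtie 1.2.2 and DESeq2 1.46.0. Reads shared between symbols were not counted.

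The deposited table holds raw counts per library, from which all values here were computed. It also holds the signal obtained by the authors as counts divided by a size factor, which was compared with the counts only. The authors' log2 fold changes and the authors' adjusted p-values hold the results of the study and were not used. No column of values per library was left out (0 columns).

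The test covered 10663 of 15798 genes, those reaching 10 counts in 3 or more input libraries. Input and footprint changes were tested in the 6 libraries of each assay with edgeR 4.0.16 (quasi-likelihood, TMM) and the interaction of assay and treatment over all 12 libraries with DESeq2 1.42.0 (likelihood ratio test, median-of-ratios size factors, no independent filtering), in R 4.3.3. DESeq2 gave no adjusted p for 2 genes. The scripts were tested on simulated data. SEs for edgeR are the change over the root of its F statistic, and 95% intervals use the t distribution of that test, or the normal distribution for DESeq2.

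The 10 genes and all lists were chosen with earlier results of these data known. Besides the 10 genes, those named were, per list and assay, up to 4 called genes in each direction with the largest change (mean normalized count of at least 50), every list gene called for ribosome density, and the 3 genes most like the called member with the largest footprint increase (mean of at least 100). Not every gene that this rule names is reported here, and PHLPP1 was named beside PHLPP2 outside this rule. Coordinates and coding lengths are from GENCODE v44 on GRCh38, and the files give symbols only. Input and footprints came from the same lysates by the methods, while the labels give only equal numbers. Over 6802 genes, the deviations of same-numbered input and footprint libraries from their group means had correlations of 0.83, 0.185 and 0.357 for DMSO and of 0.153, 0.0777 and -0.121 for trametinib. Alternatives were other scalings, filters, tests (DESeq2 Wald, limma 3.58.1 with a prior count of 2), blocks and fits without each library.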

Additional observations from a re-analysis of the deposited data

How the results depend on the processing

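Of 470 values of the 10 genes under all alternatives, 433 stayed on the same side of the threshold with the same sign, 20 lost a call, 2 gained one and 15 changed sign. The cause of these changes was not tested. Sign changes were confined to genes without a call in that comparison. With library totals, which shift the median of all genes by 0.16 in footprints and 0.18 in ribosome density, the footprint median of the 10 genes was 0.69, IRS1 turned to 0.0242 in footprints and 0.0532 in ribosome density, and 142 genes had higher ribosome density. SHC1 input was 0.0109 in limma. Fits without each library gave input changes from -0.18 to 0.10 for IRS1, -0.19 to 0.19 for SHC1, -0.0502 to 0.11 for MET and -0.36 to 0.0232 for SOS1, footprint changes from -0.34 to 0.0756 for IRS1, and ribosome density changes from -0.30 to 0.0941 for IRS1, -0.49 to 0.00751 for IRS2 and -0.0327 to 0.17 for ERBB3. Without DMSO replicate 1 in both assays, an alternative chosen after seeing the data, IRS2 ribosome density was 0.0843 and 0 of the 10 genes were called there.

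Higher ribosome density was called for 35 genes. They were 10 in edgeR and 8 in limma, with 87 and 86 lower against 149, and 0 of the 10 genes called in both. Without each library the number ranged from 7 to 38, with 0 to 1 of the 10 genes. Without trametinib input replicate 2, 1069 genes were higher in input against 1641, and over all such fits 1069 to 1767.

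Same-numbered libraries of both treatments had deviations with correlations of 0.117, 0.133 and 0.301 in footprints, all over 0.1, and of 0.0777, 0.0563 and 0.358 in input, where the numbers were not shown to pair libraries. With the replicate number as a block, 21 genes had higher ribosome density and 0 of the 10 were called, as with a block pairing input and footprints, where MET was 0.51. SHC1 input was 0.00702 with the replicate block. No other call of the 10 genes changed with a block.

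Input depth limits GAB1, IRS2 and IGF1R most.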
